A study of Mus musculus with 4 samples.

Results

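Cycling cells were taken from single-cell RNA profiles of mouse inner ear organoids, which are aggregates of embryonic stem cells led in culture toward inner ear tissue. Cells were chosen by these measured UMIs. A cell counted as cycling when at least 5 of 8 cell division markers (Top2a, Cdk1, Ube2c, Birc5, Nusap1, Cenpf, Mki67 and Ccnb1) had at least 1 UMI (unique molecular identifier, the count of 1 captured RNA molecule) and fewer than 3 of 6 pluripotency markers (Pou5f1, Nanog, Zfp42, Dppa5a, Utf1 and Tdgf1) were detected. Barcodes entered only if they had 500 or more genes and no more than 10% of UMIs from mitochondrial genes. This gate held 1961 of 35853 kept cells, out of 37597 barcodes in all. The marker counts themselves chose the cells, so levels of cell cycle genes in them describe the gate and test nothing.

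The study held 4 libraries, 1 for each genotype and day: R1/E organoids (WT) and R1/E organoids carrying Tmprss3KO-GFPKI (KO), each at day 25 and day 35, all of the derived strain 129X1x129S1. R1/E is a mouse embryonic stem cell line, Tmprss3 is a transmembrane serine protease gene linked to deafness, and by its name the KO line lacks Tmprss3 and carries a knocked-in GFP. The labels do not say how many organoids or KO clones entered a library. With 1 library per group there is no replicate check, so no test was made. All intervals are exact 95% intervals that cover counting error within a library only.

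Tmprss3 itself was scarcely seen. Over all kept cells it had 18 UMIs in WT day 25, 7 in KO day 25, 8 in WT day 35 and 5 in KO day 35, and the 4 libraries of cycling cells held 1 UMI together, in WT day 25. Counting from the 3′ end need not cover the altered part of the gene, and at this depth the gene checks no label. Total depth was 35749960 to 85808118 UMIs per library, and the median kept cell had 3089 UMIs in WT day 35, against 4420 in KO day 35, 6166.5 in WT day 25 and 6371 in KO day 25. Barcodes shared between libraries numbered 66 to 136 per pair of libraries, and 1 of them was cycling in both.

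A dividing cell copies its DNA in S phase, checks it in G2 and separates the copies in M phase. Cdk1 with its cyclin partner Ccnb1 drives entry into M phase, Top2a untangles the copied DNA, Birc5 belongs to the chromosomal passenger complex, Nusap1 and Cenpf act on spindle and kinetochore, Ube2c helps the anaphase-promoting complex mark proteins for destruction, and Mki67 coats mitotic chromosomes. Hair cells and neurons of the mammalian inner ear leave the cell cycle for good. In other tissues, muscle progenitors, glial progenitors and basal keratinocytes divide on.

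Many genes of G2 and M phase share a pair of promoter elements, the CCAAT box bound by NF-Y and the cell cycle genes homology region (CHR) bound by the MuvB complexes. To show what the gate markers have in common besides their selection, the promoters of 4 of them are printed below, 250 bases before to 50 after the RefSeq start in GRCm38.p6, 5′ to 3′ on the strand of the gene. Capitals mark CCAAT boxes (CCAAT, or ATTGG for the other strand) and CHR letters (TTTGAA or TTTAAA, or TTCAAA for the other strand). Top2a lies on the minus strand at chr11:99024140-99024439, Cdk1 on the minus strand at chr10:69352863-69353162, Ccnb1 on the minus strand at chr13:100786437-100786736 and Nusap1 on the plus strand at chr2:119618048-119618347.
Top2a: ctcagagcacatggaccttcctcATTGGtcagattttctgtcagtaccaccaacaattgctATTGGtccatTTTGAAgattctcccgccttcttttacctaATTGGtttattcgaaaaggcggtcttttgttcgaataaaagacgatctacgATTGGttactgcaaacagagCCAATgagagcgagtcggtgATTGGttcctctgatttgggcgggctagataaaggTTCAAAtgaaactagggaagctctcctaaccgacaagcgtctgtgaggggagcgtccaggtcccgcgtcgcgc
Cdk1: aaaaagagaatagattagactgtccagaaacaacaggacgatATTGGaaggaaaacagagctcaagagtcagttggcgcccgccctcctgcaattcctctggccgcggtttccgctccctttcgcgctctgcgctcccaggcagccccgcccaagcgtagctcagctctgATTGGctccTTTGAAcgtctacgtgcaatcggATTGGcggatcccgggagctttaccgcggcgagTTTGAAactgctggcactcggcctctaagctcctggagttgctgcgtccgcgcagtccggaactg
Ccnb1: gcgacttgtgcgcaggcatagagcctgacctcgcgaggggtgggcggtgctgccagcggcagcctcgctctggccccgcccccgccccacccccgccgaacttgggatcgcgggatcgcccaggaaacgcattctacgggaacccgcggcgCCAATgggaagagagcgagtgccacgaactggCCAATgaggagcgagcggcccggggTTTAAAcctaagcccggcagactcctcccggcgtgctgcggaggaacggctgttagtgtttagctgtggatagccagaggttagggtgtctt
Nusap1: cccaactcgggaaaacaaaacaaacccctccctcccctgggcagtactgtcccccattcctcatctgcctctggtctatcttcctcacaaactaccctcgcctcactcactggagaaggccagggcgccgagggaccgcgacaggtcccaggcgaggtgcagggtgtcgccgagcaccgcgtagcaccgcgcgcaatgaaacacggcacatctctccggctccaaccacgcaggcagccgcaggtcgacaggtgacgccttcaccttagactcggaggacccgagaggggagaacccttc

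Top2a held 6 CCAAT boxes and 2 CHR matches in this window, Cdk1 held 3 and 2, and Ccnb1 held 2 and 1. Nusap1 is shown as the only gate marker that held neither. Birc5, which is not printed, held 1 CHR match but no CCAAT box, so it lacked the pair too. All 8 gate markers were found in the RefSeq table. A CCAAT box stood in 6 of the 8 windows (75%), and a CHR match in 7 (87.5%), against 37.4% and 27.6% of all 32851 promoter windows of the same length. Both together were found in 6 gate windows (75%) and in 10.7% of all windows. For the wider list of spindle, kinetochore and cytokinesis genes (65 of 85 genes matched, 71 windows), 54.9% held both. The list of origin licensing and DNA synthesis genes (48 of 63 matched, 56 windows) had a CHR match in 25% and an E2F site (TTTCCCGC, TTTGGCGC, TTTCGCGC or TTTGCCGC, either strand) in 33.9%, where 2.26% of all windows had an E2F site. A match is a run of letters, not a shown binding site.

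More of the day 25 cells than of the day 35 cells were cycling. The share was 7.76% of kept cells in WT day 25 (758 of 9768, interval 7.24 to 8.31%), 8.49% in KO day 25 (950 of 11190, 7.98 to 9.02%), 1.78% in WT day 35 (145 of 8166, 1.5004 to 2.09%) and 1.60% in KO day 35 (108 of 6729, 1.32 to 1.93%). Day 35 thus lay well under day 25 in both genotypes, with ratios of 0.229 (0.190 to 0.274) in WT and 0.189 (0.153 to 0.231) in KO. Set by genotype, the KO share divided by the WT share came to 1.09 at day 25 (0.993 to 1.21) and to 0.904 at day 35 (0.698 to 1.17), both with intervals that hold 1. With cells thinned to equal depth and 3 of 8 markers, the day 25 value was 1.12 (1.0096 to 1.25) at 2000 UMIs and 1.13 (1.004 to 1.27) at 1500 UMIs, intervals that leave out 1. With 2 of 8 markers at 1500 UMIs it was 1.11 (1.006 to 1.22). At 3000 UMIs it was 1.10 (0.969 to 1.25) with 5 of 8 markers and 1.08 (0.986 to 1.19) with 3 of 8, intervals that hold 1.

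The threshold did not fall at a gap in the data. Among kept cells with fewer than 3 pluripotency markers, 362 had exactly 4 cycling markers and so stayed out, 346 had exactly 5, and 349, 556 and 710 had 6, 7 and 8. Cells in the gate were also deeper than the rest: their median was 9784.5 UMIs against 5972 in WT day 25, 9606 against 6156.5 in KO day 25, 3678 against 3073 in WT day 35 and 5964 against 4404 in KO day 35.

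Since a marker is detected more easily in a deep cell, the gate was applied again after drawing the same number of UMIs from each cell. At 3000 UMIs the shares were 4.36%, 4.81%, 2.20% and 1.27% in WT day 25, KO day 25, WT day 35 and KO day 35, but 3852 shallower cells (47.2%) of WT day 35 and 254 (3.77%) of KO day 35 had to be left out. At 1500 UMIs no cell was left out. With 3 of 8 markers required there, a threshold chosen after the data were seen, the shares were 5.07%, 5.73%, 1.63% and 1.78%. The ratio of day 35 over day 25 was then 0.321 (0.263 to 0.390) in WT and 0.311 (0.254 to 0.379) in KO, so both day 35 libraries stayed below day 25 at equal depth. At day 35 the KO share divided by the WT share was 0.575 (0.423 to 0.781) in the cells of at least 3000 UMIs and 1.09 (0.848 to 1.41) with all cells, so the order of the genotypes at day 35 depended on which cells were kept.

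**Figure D1:**
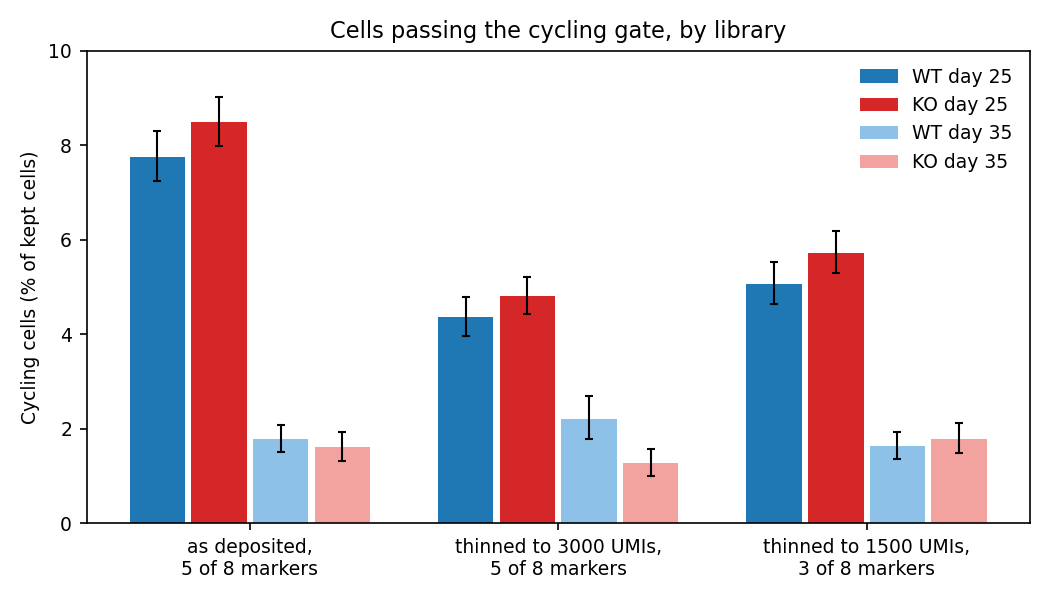
Share of kept cells that passed the cycling gate (y axis, percent) in each of the 4 libraries, as deposited and after thinning each cell to 3000 or 1500 UMIs (x axis). Bars are shares and lines are exact 95% intervals for counting error. Both day 25 libraries stand above both day 35 libraries in each setting, at 7.76% and 8.49% against 1.78% and 1.60% as deposited.

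To find which tissues cycled, all kept cells were grouped without cell cycle genes into 24 clusters, of which 19 were given to 14 named classes by marker genes and 5 were left unnamed. The cycling cells were not spread evenly over them. Myogenic progenitor-like cells, led by Pax7, Myf5, Msc and Fgfr4, made up 929 of the 1961 cycling cells (47.4%) but 9.83% of all kept cells. Their cycling share over the 4 libraries, 26.4% (24.9 to 27.9%), was the highest of the 12 classes ranked (all but the pluripotent-like and the small immune-like class), and oligodendrocyte lineage-like cells came next with 22.8% (49 of 215, 17.4 to 29.0%). These intervals overlap, so the order of those 2 classes was not settled by counting. Keratinocyte-like cells followed with 11.9% (149 of 1248, 10.2 to 13.9%). Adipocyte-like, Schwann or satellite glia-like and astrocyte-like cells had 10.0%, 9.29% and 7.95%, and neighbours in this order overlapped in their intervals.

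Classes of cells that have left the cycle show how often the gate passes a cell that should not divide. Differentiated skeletal muscle-like cells passed in 19 of 1860 cases (1.02%, 0.616 to 1.59%) and hair cell-like cells in 2 of 117 (1.71%, 0.208 to 6.04%). At equal depth (1500 UMIs, 3 of 8 markers) the muscle share was 0.38%, against 19.5% in myogenic progenitor-like, 16.3% in oligodendrocyte lineage-like and 7.69% in keratinocyte-like cells. Fibroblast or mesenchymal-like cells, with 3.26% as deposited and 1.95% thinned, lay above the muscle level in these clusters. Neuron-like cells, which should not divide either, passed more often, in 3.51% as deposited and 2.58% thinned. At resolution 2 fibroblasts stayed above muscle, at 3.84% against 1.36%. They lay below it at resolution 0.5 (3.28% against 4.15%) and with clusters formed from cells outside the gate (3.35% against 4.43%). Their place thus depended on the class and clusters compared. Otic fibrocyte or periotic mesenchyme-like cells (1.07% and 0.63%) and otic epithelial-like cells (0.389% and 0.23%) lay within or under the interval of the muscle class when pooled over libraries, which mixes the days. At day 25 alone, otic fibrocyte or periotic mesenchyme-like cells passed in 1.92% (WT) and 2.71% (KO) and otic epithelial-like cells in 2.04% and 0.571%, beside 1.64% and 1.72% of muscle cells, with overlapping intervals.

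**Figure D2:**
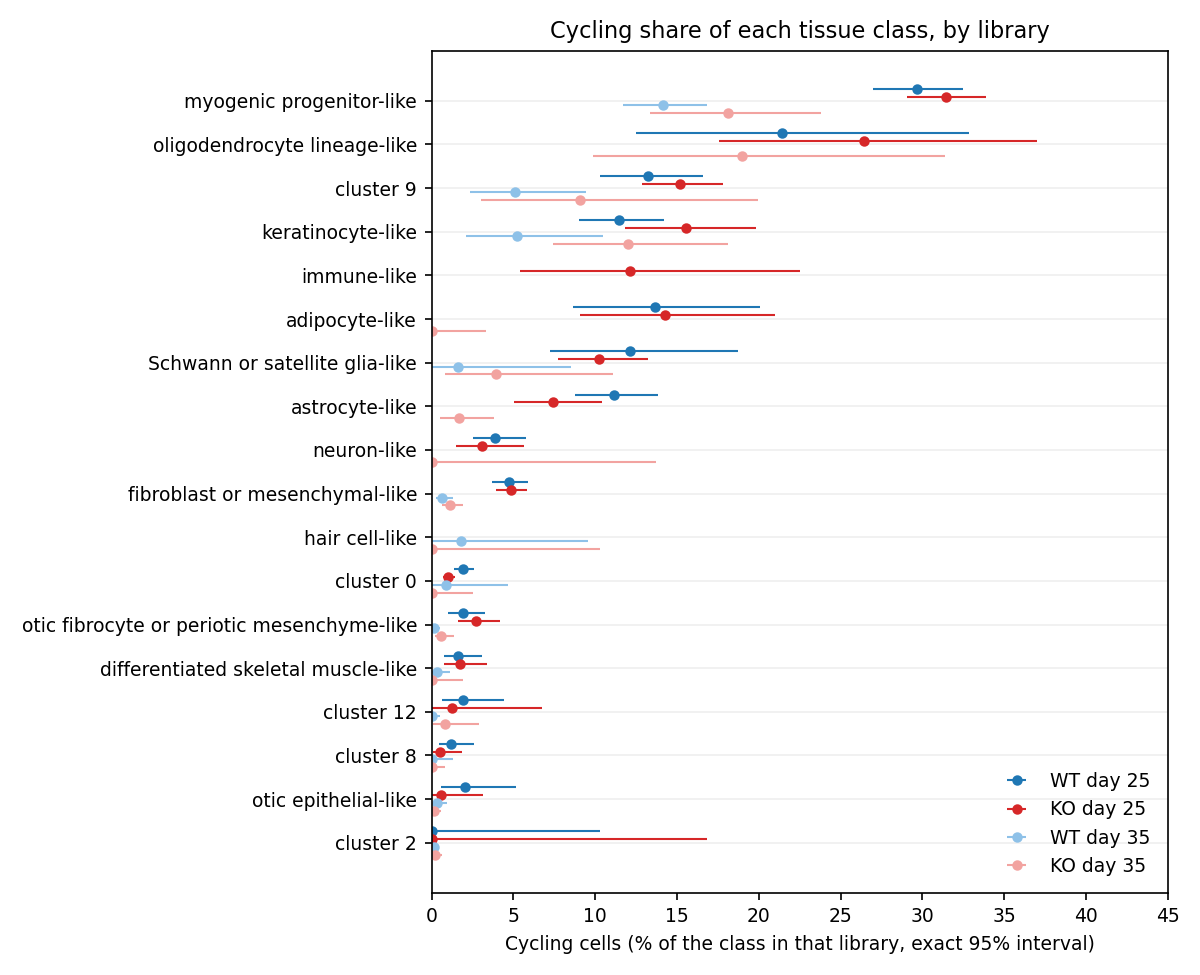
Cycling cells as a percent of each tissue class (x axis), by library, with points for shares and lines for exact 95% intervals of counting error. Classes are ordered by their share over all libraries, and values from libraries with few cells of a class are not drawn. Myogenic progenitor-like cells reach 29.7% and 31.4% at day 25, while otic epithelial-like cells stay at or under 2.04%.

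Myogenic progenitor-like cells cycled in every library. In WT day 25, 323 of 1088 passed the gate (29.7%, 27.0 to 32.5%), in KO day 25 459 of 1460 (31.4%, 29.1 to 33.9%), in WT day 35 106 of 750 (14.1%, 11.7 to 16.8%) and in KO day 35 41 of 226 (18.1%, 13.3 to 23.8%). Both day 25 values lay above both day 35 values without overlap of intervals. The KO share over the WT share was 1.06 (0.916 to 1.23) at day 25. At day 35 it was 1.28 (0.872 to 1.86) as deposited and 0.605 (0.382 to 0.940) at 3000 UMIs per cell, where the direction turned. Different clusters held this class on the 2 days, cluster 3 at day 25 (1085 of the 1088 WT and 1454 of the 1460 KO cells) and cluster 15 at day 35 (709 of 750 and 210 of 226), and cell cycle genes such as Cdk1 and Ube2c were among the leading genes of cluster 3 although they had not been used to form it.

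Within this class the difference between the days varied with the depth setting. The ratio of day 35 over day 25 was 0.476 (0.379 to 0.595) in WT and 0.577 (0.409 to 0.795) in KO as deposited, and 0.658 (0.515 to 0.835) and 0.720 (0.495 to 1.02) at 1500 UMIs per cell. At 3000 UMIs, where 474 of the 750 WT day 35 cells dropped out, the WT ratio was 1.37 (1.02 to 1.82) and the direction was turned. Among WT day 35 cells deep enough for that setting, 24.3% passed, against 17.7% in WT day 25. Tissue makeup also differed between the days. With the class shares of WT day 25 weighted by the makeup of WT day 35, the library share came to 5.01% in place of 7.76%, and the same sum for KO gave 4.11% in place of 8.49%. Conversely, WT day 35 with the makeup of WT day 25 gave 2.96% in place of 1.78%, and KO day 35 with that of KO day 25 gave 4.10% in place of 1.60%. These sums too moved with depth. At 3000 UMIs WT day 35 with the makeup of WT day 25 gave 4.30%, beside 4.36% measured in WT day 25, and the KO sum gave 3.40% beside 4.81%. At 1500 UMIs the pairs were 2.94% beside 5.07% and 3.67% beside 5.73%. Classes with under 20 cells in the library that supplied the shares were left out of these sums. They held 15.3% of the WT day 25 cells, and at most 5.17% of cells in the other sums.

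**Figure D3:**
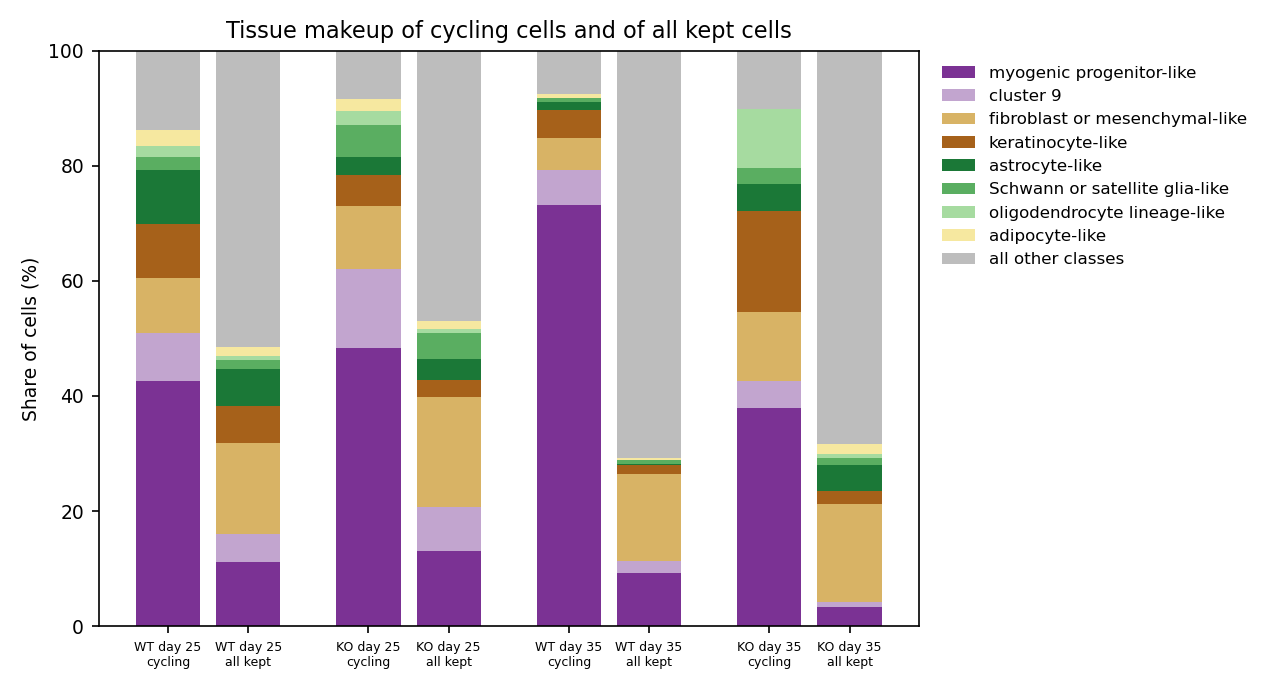
Tissue classes as a percent (y axis) of cycling cells and of all kept cells in each library (x axis). The myogenic progenitor-like class takes 42.6%, 48.3%, 73.1% and 38.0% of cycling cells in WT day 25, KO day 25, WT day 35 and KO day 35, but 11.1%, 13.05%, 9.18% and 3.36% of all kept cells.

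Cluster 9, whose leading genes were Myog, Cck, Vgll2, Actc1 and Myod1, stayed unnamed because markers of myogenic progenitors and of differentiated muscle tied in it. Its cycling share was 13.2% in WT day 25 (63 of 477), 15.2% in KO day 25 (131 of 861), 5.08% in WT day 35 (9 of 177) and 9.09% in KO day 35 (5 of 55). Its cycling cells had less Myog and more Myod1 than its other cells. Myog, the transcription factor that commits myoblasts to differentiate, was at 3011 CPM (UMIs of the gene as a share of all UMIs of the pooled cells, scaled to a common total) in cycling and 4340 CPM in other cells of KO day 25, and at 3116 and 3623 CPM in WT day 25. Myod1, which acts before Myog, was higher in the cycling cells, at 537 against 334 CPM in KO day 25 and 549 against 329 CPM in WT day 25.

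Contractile genes of the same cluster were lower in its cycling cells. Acta1, skeletal muscle actin, was at 155 against 1269 CPM in KO day 25 and at 154 against 1316 CPM in WT day 25. Mylpf, a fast muscle myosin light chain, was at 256 against 2015 CPM and at 464 against 1804 CPM. Ckm, muscle creatine kinase, was at 52.2 against 605.9 CPM and at 49.0 against 463.0 CPM, so for these 3 genes the cycling cells were lower in both day 25 libraries.

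In the myogenic progenitor-like class the precursor genes were close in both kinds of cell at day 25. Pax7, the muscle stem cell factor, was at 69.5 CPM in cycling and 68.4 CPM in other cells of KO day 25, and at 58.2 and 65.9 CPM in WT day 25. Myf5 was at 146 and 144 CPM in KO day 25, at 102 and 115 CPM in WT day 25, at 339 and 343 CPM in WT day 35 and at 298 and 322 CPM in KO day 35. Levels of Myf5 thus differed more between the days than between cycling and other cells. Myod1 was higher in the cycling cells at day 25, at 155 CPM (142 to 170) against 115 CPM (105 to 125) in WT and 147 CPM (135 to 159) against 120 CPM (111 to 129) in KO. The contractile gene Acta1 was at 316 CPM (263 to 376) in cycling and 452 CPM (422 to 485) in other cells of WT day 35. Mylpf was at 23.8 CPM (8.75 to 51.9), from 6 UMIs, and 76.1 CPM (58.0 to 97.9) in KO day 35, so the cycling cells were lower in these 2 cases. Cells whose score against simulated doublets was among the highest of their library, in the number expected from its barcodes, made up 5.27% of the cycling cells of this class.

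**Figure D4:**
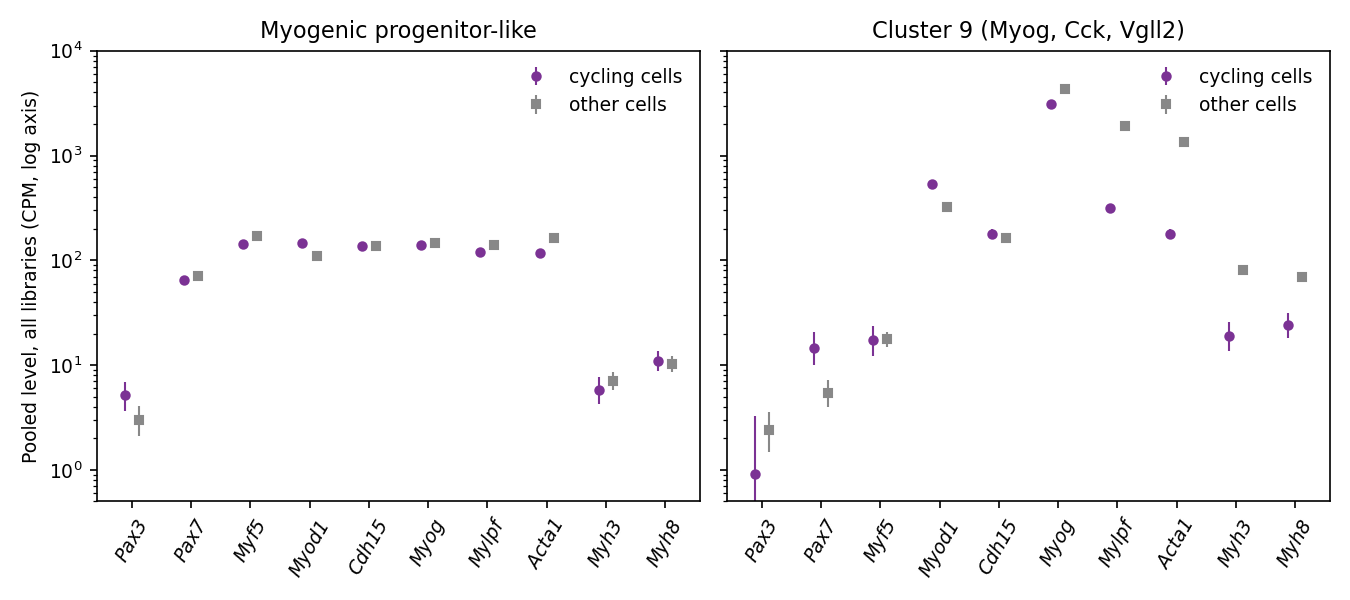
Levels of 10 genes of the muscle sequence (x axis), pooled over the 4 libraries in CPM on a log axis (y axis), in cycling and other cells of the myogenic progenitor-like class (left) and of cluster 9 (right). Lines are exact 95% Poisson intervals. In cluster 9 Acta1 was at 180 CPM in cycling and 1344 CPM in other cells, and in the progenitor-like class it was at 117 and 163 CPM.

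Oligodendrocyte lineage-like cells were few but often cycled. The counts were 15 of 70 in WT day 25 (21.4%, 12.5 to 32.9%), 23 of 87 in KO day 25 (26.4%, 17.6 to 37.0%) and 11 of 58 in KO day 35 (18.97%, 9.87 to 31.4%), and WT day 35 held no cell of this class. Cycling cells had less Mbp RNA. Mbp, myelin basic protein, was at 450 CPM (391 to 515) in cycling and 2287 CPM (2199 to 2377) in other cells over all libraries. Pdgfra, the growth factor receptor of oligodendrocyte precursors, went the other way, at 159 CPM (125 to 200) against 107 CPM (88.7 to 128). The lineage factors Olig1 (663 and 684 CPM) and Olig2 (390 and 425 CPM) were close in both kinds of cell.

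Astrocyte-like cells cycled in 71 of 638 cases in WT day 25 (11.1%, 8.79 to 13.8%), 30 of 405 in KO day 25 (7.41%, 5.05 to 10.4%) and 5 of 302 in KO day 35 (1.66%, 0.540 to 3.82%), and in 2 of only 14 in WT day 35. Their share over all libraries depended on how cells were classed. It was 7.95% in the main clusters and 5.01% at resolution 2. When each cell took its highest marker set it was 1.45%, under the 2.80% of differentiated muscle-like cells. The leading genes of the cluster included the neural progenitor markers Fabp7 and Hes5 beside Gfap and Aqp4. Over all libraries Gfap, the intermediate filament of mature astrocytes, was at 155 CPM in the cycling and 847 CPM in the other cells, and the water channel Aqp4 at 59.7 and 232.8 CPM. Hes5, a Notch target of neural progenitors, was at 626 and 379 CPM. Pooled over libraries, the class thus showed lower levels of maturity genes and a higher level of a progenitor gene in the gated cells, with 108 cycling cells in all. KO day 35 gave 5 of the cycling cells but 297 of the 1251 other cells, so these pooled levels also mix the days. High doublet scores marked 29.6% of the cycling cells. Of the same cells, 20.4% had 3 or more myogenic progenitor markers against 3.0% of the other astrocyte-like cells, and the part of such mixed profiles in the result was not tested.

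Neuron-like cells passed the gate in 24 of 616 cases in WT day 25 (3.90%, 2.51 to 5.74%) and 10 of 323 in KO day 25 (3.10%, 1.49 to 5.62%), and in none of 25 in KO day 35, which allows a share of up to 12%. The 34 gated cells carried less of the neuronal genes Stmn2 (532 against 1761 CPM) and Tubb3 (521 against 1431 CPM). High doublet scores marked 26.5% of them. Schwann or satellite glia-like cells, led by Npy, Cd200 and Sox10 among others, cycled in 17 of 140 (12.1%), 52 of 507 (10.3%), 1 of 63 (1.59%) and 3 of 76 (3.95%) in WT day 25, KO day 25, WT day 35 and KO day 35. With 4 such cells at day 35, the ratio of day 35 over day 25 was 0.131 (0.00313 to 0.834) in WT and 0.385 (0.0769 to 1.19) in KO, and at 1500 UMIs 0.222 (0.00512 to 1.56) and 0.556 (0.110 to 1.76), so only the WT value as deposited left out 1.

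Keratinocyte-like cells fell into a pair of clusters that cycled to different degrees. Cluster 21, led by the hair follicle genes Krt35, Krt71, Krt28, Krt25 and Dapl1, was present only at day 25 and had 28 of 79 cycling cells in WT (35.4%, 25.0 to 47.0%) and 31 of 103 in KO (30.1%, 21.5 to 39.9%), shares as high as those of the myogenic progenitor-like class. Cluster 13, led by the epidermal genes Krt14, Krtdap, Krt17 and Krt5, had 43 of 542 (7.93%), 21 of 232 (9.05%), 7 of 134 (5.22%, 2.13 to 10.47%) and 19 of 158 (12.03%, 7.40 to 18.1%) in WT day 25, KO day 25, WT day 35 and KO day 35. Here day 35 was not clearly lower than day 25: the ratio was 0.658 (0.250 to 1.48) in WT and 1.33 (0.676 to 2.60) in KO. At 1500 UMIs per cell the ratios were 1.16 (0.382 to 2.96) and 1.66 (0.782 to 3.58).

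In cluster 13, Lor, a protein of the cornified envelope, was at 4.9 CPM in cycling and 60.4 CPM in other cells over all libraries. It was detected in 5.56% of the cycling and 5.23% of the other cells, so this gap in level rests on few cells. Ivl (5.7 and 43.5 CPM), Sbsn (88.2 and 272 CPM) and Calml3 (16.3 and 40.1 CPM) of the keratinocyte list were at lower levels in cycling cells too. Ivl was detected in 5.56% of cycling and 10.1% of other cells, Sbsn in 34.4% and 35.7% and Calml3 in 10% and 7.68%. The gaps for Ivl and Calml3 thus rest on few cells as well, and Calml3 was not found in fewer of the cycling cells. Krt10, Krt1 and Krtdap, also genes of the differentiating layers, were not lower in this way. Krt10 was at 1047 and 800 CPM, Krt1 at 443 and 375 CPM and Krtdap at 1541 and 1810 CPM. Pooled levels joined unlike libraries, since Krt10 was at 1663 against 708 CPM in WT day 25 and at 5.8 against 343 CPM in KO day 25. Basal keratins depended on the library too. Krt14 in cycling cells was at 7224 CPM in WT day 25 and at 580 CPM in KO day 25, against 2439 and 1574 CPM in the other cells, and Krt5 at 3089 and 560 CPM against 990 and 864 CPM. The cycling cells were thus above the others in WT and below them in KO. Of the cycling cells of this cluster in KO day 25, 33.3% had high doublet scores, against 4.65% in WT day 25, and the part of this in the keratin levels was not tested.

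Adipocyte-like cells cycled in 21 of 154 (13.6%, 8.64 to 20.1%) in WT day 25 and 21 of 147 (14.3%, 9.07 to 21.005%) in KO day 25, in 1 of 17 in WT day 35 and in none of 110 in KO day 35, which allows up to 2.73%. The cycling ones at day 25 were deep, with medians of 16764 and 19882 UMIs. At 1500 UMIs their shares were 5.84% and 7.48%. Immune-like cells were found almost only in KO day 25, where 8 of 66 passed (12.1%, 5.38 to 22.5%).

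Fibroblast or mesenchymal-like cells, a large class of 6047, cycled in 4.72% in WT day 25 (73 of 1547), 4.83% in KO day 25 (103 of 2131), 0.653% in WT day 35 (8 of 1226) and 1.14% in KO day 35 (13 of 1143). Cluster 1 held most of the class at day 25 and cluster 4 most of it at day 35. The ratio of day 35 over day 25 was 0.138 (0.058 to 0.287) in WT and 0.235 (0.121 to 0.420) in KO, and 0.082 (0.016 to 0.256) and 0.316 (0.144 to 0.623) at 1500 UMIs. At 3000 UMIs it was 0.466 (0.175 to 1.06) and 0.420 (0.189 to 0.842), so the WT interval then held 1. Within cluster 1 alone the KO ratio was 0.807 (0.216 to 2.13), from 4 cycling cells at day 35, and 1.74 (0.546 to 4.30) at 1500 UMIs, where the direction turned. The collagen Col1a1 was at 4203 CPM in cycling and 5874 CPM in other cells over all libraries, and Col3a1 at 4986 and 7392 CPM. Not all genes of the fibroblast list were lower in cycling cells. Ly6a was at 144 and 86.9 CPM and Twist1 at 67.7 and 50.2 CPM, while Prrx1 (198 and 177 CPM) and Pdgfra (119 and 111 CPM) were close. High doublet scores marked 40.1% of the cycling cells of this class, and 13.2% had 3 or more myogenic progenitor markers against 1.5% of its other cells. How far doublets of a fibroblast and a dividing cell fill this share was not tested.

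Few cells of the inner ear classes proper passed the gate. Otic epithelial-like cells, marked by Oc90, Otol1, Otoa and Cldn9, passed in 4 of 196 (2.04%, 0.559 to 5.14%), 1 of 175 (0.571%), 3 of 952 (0.315%, 0.065 to 0.918%) and 2 of 1246 (0.161%, 0.019 to 0.579%) in WT day 25, KO day 25, WT day 35 and KO day 35. Of these 10 cells, 80% had high doublet scores. Otic fibrocyte or periotic mesenchyme-like cells, mostly in cluster 10 at day 25 and in cluster 5 at day 35, passed in 13 of 678 (1.92%), 19 of 700 (2.71%), 2 of 1397 (0.143%) and 5 of 856 (0.584%). The 19 gated cells of the differentiated muscle-like class had high doublet scores in 78.9%, the 929 of the myogenic progenitor-like class in 5.27%.

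Unnamed clusters other than cluster 9 cycled little. Cluster 0, led by Ibsp, Nrn1 and Cyp26b1, held 73 cycling cells among 5460 (1.34%, 60.3% of them with high doublet scores), cluster 12 held 8 of 1274 (0.628%), cluster 8 held 8 of 1609 (0.497%) and cluster 2 held 4 of 2789 (0.143%). Over whole libraries, high doublet scores marked 16.8%, 16.8%, 14.5% and 6.48% of cycling cells in WT day 25, KO day 25, WT day 35 and KO day 35, against 7.06%, 8.22%, 6.38% and 5.36% of the other kept cells.

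The gate favours G2 and M phase, since its markers peak there. In each cycling cell the UMIs of 63 S phase genes were set against those of these and 85 G2 and M phase genes together. The S phase part had a median of 28.5%, 27.8%, 25.0% and 23.0% in WT day 25, KO day 25, WT day 35 and KO day 35, and 45.6% of all cycling cells were under 25%. By class the median ran from 16.5% in cluster 0 and 21.1% in cluster 9 to 28.9% in myogenic progenitor-like and 36.5% in oligodendrocyte lineage-like cells. Cells with S phase genes were also found outside the gate: 10 or more of these genes were detected in 10.4%, 10.6%, 1.99% and 2.59% of the other cells, and in 91.2%, 94.0%, 64.8% and 83.3% of the cycling cells. Depth differs between the libraries, so these shares carry no order of the days.

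What cycling cells of different tissues shared was compared with other cells of the same class in the same library, in 19 such pairs with at least 20 cycling cells, over 1640 genes with at least 50 UMIs in each pair (both kinds of cell together). The median log2 ratio reached 1 in 75 genes (4.57%) and -1 in 1 gene (0.061%). Beyond the 8 markers, the largest medians were those of Ccna2, the cyclin of S and G2 phase (4.76, from 3.13 to 5.89), Cdc20, an activator of the anaphase-promoting complex (4.55), Spc25, a kinetochore subunit (4.54), Cdca3 (4.35) and Cenpa, the histone of the centromere (4.01). The next were 2810417H13Rik (3.74), Spc24 (3.66), Lockd (3.61), Rrm2, a subunit of the enzyme that makes deoxynucleotides (3.41), and the chromatin protein Hmgb2 (3.33). Each was higher in 19 of 19 pairs.

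The lists of division genes followed the gate. Of 11 measured members of the list for spindle, kinetochore and cytokinesis, 11 reached a median log2 ratio of 1. So did 8 of 9 measured genes for origin licensing and DNA synthesis and 18 of 25 chromatin proteins of dividing cells, where 4.57% of all genes did. None of the 7 measured Myc family and ribosome biogenesis genes and none of 3 measured p53 targets did. Since the same contrast chose the cells, nothing is read from these counts. The 7 promoters found for the 10 genes named as highest all held both a CCAAT box and a CHR match. This compares with 2 of 12 windows of the 10 genes named as lowest and 10.7% of all windows. The gate of division markers led to the highest genes, so nothing is read from this count either.

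Genes that were lower in the cycling cells of all 19 pairs were lower by little. Ctsl, a lysosomal protease, had a median log2 ratio of -1.09 (-1.80 to -0.73), Ndrg2 of -0.93, the lysosomal protease Ctsd of -0.80 and Ninj1 of -0.80. The glycolytic enzymes Aldoa (-0.78) and Hk2 (-0.77) and the hypoxia-induced Bnip3 (-0.73) followed with Grina (-0.75), Hcfc1r1 (-0.69) and the protease inhibitor Cstb (-0.68).

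Not every brake of the cycle was lower in cycling cells. Cdkn2d, an inhibitor of CDK4 and CDK6, had a median log2 ratio of 2.08 (1.09 to 2.83) and was higher in 19 of 19 pairs. In myogenic progenitor-like cells Cdkn2d was at 145 CPM (137 to 153) in cycling and 36.2 CPM (33.1 to 39.5) in other cells over all libraries, and its relative Cdkn2c at 126 CPM (119 to 134) and 22.9 CPM (20.5 to 25.6). The same held in the other classes with enough cells. Cdkn2c was at 166 and 16.2 CPM in fibroblast or mesenchymal-like, 56.0 and 5.9 CPM in keratinocyte-like, 100.3 and 7.5 CPM in astrocyte-like, 109.8 and 8.0 CPM in oligodendrocyte lineage-like and 204 and 15.6 CPM in Schwann or satellite glia-like cells.

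Btg2, an antiproliferative gene, had a median of -0.67 and was higher in only 2 of 19 pairs, while Cdkn1a, the p53-driven CDK inhibitor, had a median of -0.13 and was higher in 8 of 19. Cks1b, a small subunit of CDK complexes, had a median of 1.79 and was higher in every pair. Cdk4, a kinase of the G1 phase, had a median of 0.59 with the same direction in all pairs, and the D-type cyclin Ccnd3 a median of -0.28. Ccnd2 was at 29.1 and 49.7 CPM in cycling and other myogenic progenitor-like cells of KO day 25, at 56.3 and 114.3 CPM in WT day 25, at 11.9 and 54.5 CPM in KO day 35 and at 25.3 and 57.4 CPM in WT day 35, so it was lower in cycling cells of this class in all 4 libraries.

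Between the genotypes, few genes differed in the cycling cells on both days. Over all cycling cells, 151 of 11094 genes were at least 2-fold higher in KO at day 25 (1.36%) and 209 lower (1.88%), and at day 35 112 of 3548 were higher (3.16%) and 90 lower (2.54%). Of 3547 genes measured on both days, 2 were higher and 2 lower by this fold on both, with intervals without 0. All 4 are imprinted, that is, expressed mainly from the copy of 1 parent: H19, Mest, Igf2 and Cdkn1c.

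H19, a long non-coding RNA, was at 492 CPM in WT day 25, 2135 CPM in KO day 25, 205 CPM in WT day 35 and 583 CPM in KO day 35, log2 ratios of 2.12 (2.07 to 2.17) and 1.51 (1.22 to 1.81). Mest, a hydrolase gene, was higher in KO by 1.06 (1.03 to 1.10) and 1.21 (1.03 to 1.38) on the same scale. Igf2, a growth factor that shares its locus with H19, was at 724 CPM in WT day 25, 113 CPM in KO day 25, 571 CPM in WT day 35 and 25.5 CPM in KO day 35, ratios of -2.67 (-2.77 to -2.58) and -4.48 (-5.23 to -3.82). Cdkn1c, an inhibitor of cyclin-dependent kinases, was at 620 and 25.9 CPM and at 187 and 26.9 CPM, ratios of -4.58 (-4.77 to -4.40) and -2.80 (-3.56 to -2.11). The clone and the genotype cannot be told apart here.

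These 4 differences were not bound to 1 tissue or to cycling. At day 25, within cycling cells of the adipocyte-like, astrocyte-like, keratinocyte-like, fibroblast or mesenchymal-like and myogenic progenitor-like classes and of clusters 0 and 9, the log2 ratio of KO over WT ran from 1.35 to 2.78 for H19, from 0.63 to 1.02 for Mest, from -4.98 to -1.48 for Igf2 and from -5.41 to -3.14 for Cdkn1c. The other cells of these classes had the same sign in each case. Mest was thus under 2-fold within most classes. In myogenic progenitor-like cells Cdkn1c was at 937 CPM in cycling and 1521 CPM in other cells of WT day 25, and at 22.0 and 27.4 CPM in KO day 25. The cycling share of that class was 29.7% in WT and 31.4% in KO.

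**Figure D5:**
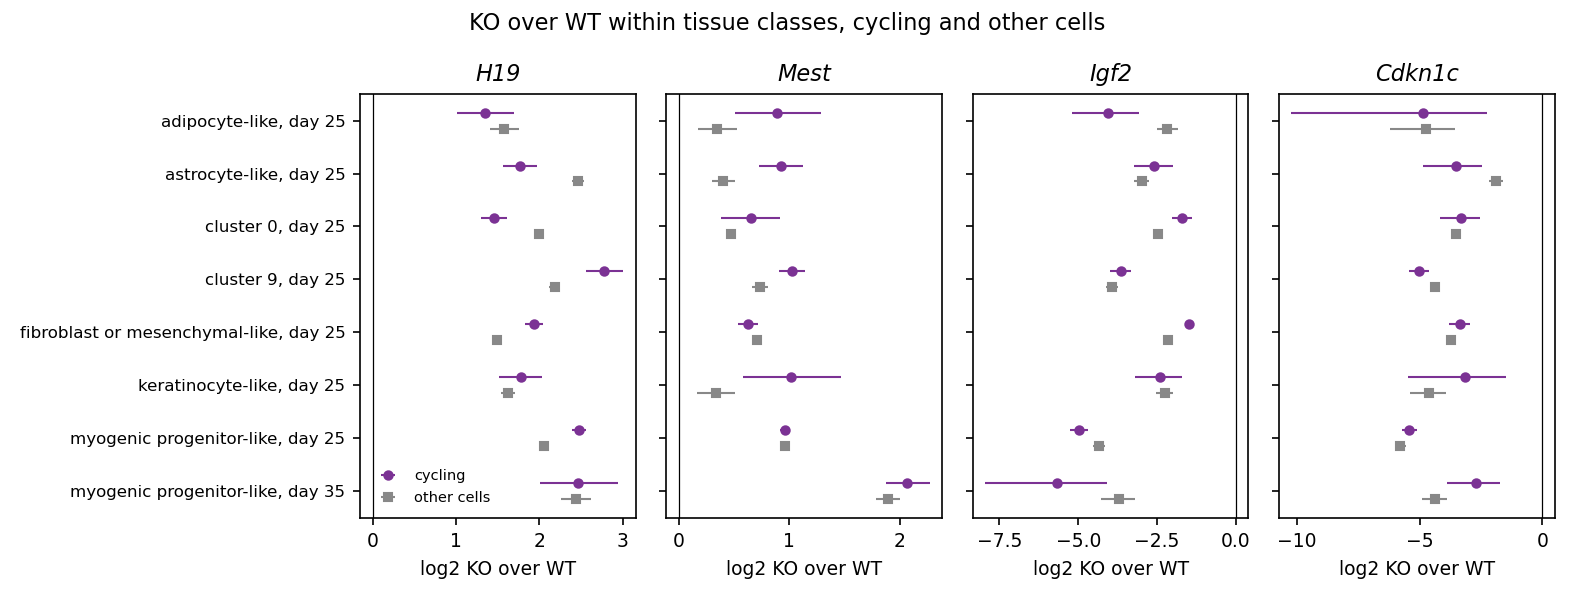
Log2 ratio of KO over WT (x axis) for H19, Mest, Igf2 and Cdkn1c in cycling cells and in other cells of each class with at least 20 cycling cells in both libraries (y axis), with exact 95% intervals. H19 and Mest lie above 0, and Igf2 and Cdkn1c below 0, in each class drawn, in cycling and other cells alike.

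Levels of division genes follow the gate that chose the cells, so nothing is read from them between the genotypes. At day 25 none of 63 S phase genes and none of 85 G2 and M phase genes was past 2-fold in either direction, where 1.36% of all genes were higher and 1.88% lower, with median log2 ratios of 0.03 and 0.10 beside 0.01 over all genes. At day 35, 1 of 78 measured G2 and M phase genes was higher, where 3.16% of all genes were. Of the keratinocyte list, 7 of 10 measured genes were at least 2-fold lower in KO at day 25 (1.88% of all genes) and 6 of 6 higher at day 35 (3.16%), beside 5.47% keratinocyte-like cells among cycling cells in KO day 25, 9.37% in WT day 25, 17.6% in KO day 35 and 4.83% in WT day 35. Of the otic list, 6 of 13 measured genes were at least 2-fold lower in KO at day 25 and none higher. The central neural and oligodendrocyte list had 5 of 19 lower and 2 higher. None of 12 genes of the muscle sequence was past 2-fold at day 25, and 1 of 17 fibroblast genes was higher and 1 lower.

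More genes passed 2-fold between the days than between the genotypes, but the pools compared were of unlike depth. Cycling cells of WT day 35 held 625295 UMIs beside 8300787 for WT day 25. For KO the totals were 744339 (day 35) and 10166879 (day 25). A gene with few UMIs in the shallow pool can pass 2-fold by counting error. The first counts below ask for the ratio alone, without an interval, so they do not rank day against genotype. In WT 813 of 9390 genes were at least 2-fold higher (8.66%) and 1240 lower (13.2%), and in KO 683 of 9957 were higher (6.86%) and 777 lower (7.8%). With the same sign and an interval without 0 in both genotypes, 141 of 9247 genes were higher and 97 lower. Within the myogenic progenitor-like class, the only one with 20 cycling cells at day 35, 56 of these 141 and 37 of these 97 genes reached 2-fold again with the same sign. No interval without 0 was asked for within the class, where 206 genes were higher and 162 lower by this looser rule. How many of the 141 and 97 had enough UMIs there for a ratio was not counted, so 56 and 37 give no share that held. The class also made up 73.1% of the cycling cells of WT day 35, so its cells are no separate check. For the genes that did not reach 2-fold there, the part of tissue makeup was not tested. First in rank was C1qtnf3, a secreted protein gene and a leading gene of cluster 15 of the myogenic progenitor-like class, with log2 ratios of 5.21 (4.50 to 5.96) in WT and 3.92 (3.13 to 4.71) in KO. Within that class its ratios were 5.38 and 4.81 in cycling cells and 4.98 and 4.67 in other cells.

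Fos, an immediate early transcription factor, was at 567 CPM at day 25 and 2631 CPM at day 35 in WT and at 703 and 2129 CPM in KO, ratios of 2.21 and 1.60. Dusp1, a phosphatase of the stress response, had ratios of 2.35 and 1.85, Gadd45g, a stress-induced regulator, 2.50 and 1.94, and the Notch target Hes1 1.81 and 1.74. Median mitochondrial shares of cycling cells were 2.89%, 2.64%, 6.19% and 3.98% in WT day 25, KO day 25, WT day 35 and KO day 35, and their part in these ratios was not tested. Abhd2, Gm14091, Iigp1, S100a1 and Cd27 made up the rest of the 10 genes ranked highest, with ratios between 1.83 and 2.77. In cycling myogenic progenitor-like cells alone, Gadd45g had ratios of 3.76 and 3.73, and Fos of 2.63 and 1.81.

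Among the genes ranked as lower, 4 belonged to hair follicle keratinocytes, which were found only at day 25. Krt71 had 172 UMIs in WT day 25, 157 in KO day 25 and 0 in both day 35 libraries, and Krt35 had 150 and 205 UMIs at day 25 and 0 at day 35. Mt4, a metallothionein of squamous epithelia, had 204 and 310 UMIs at day 25 and 0 at day 35. Set against a floor of 3 counts per library, the log2 ratio was at most -1.91 in WT and -2.32 in KO for Krt35, and at most -2.36 and -2.92 for Mt4. Krt28, the fourth, had 175 and 279 UMIs at day 25 and 0 and 1 at day 35.

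Hist1h2ap, a histone gene tied to DNA replication, was at 2207 CPM in WT day 25 and 441 CPM in WT day 35, and at 2240 CPM in KO day 25 and 141 CPM in KO day 35, ratios of -2.32 (-2.50 to -2.15) and -3.99 (-4.28 to -3.71). In cycling myogenic progenitor-like cells the ratios were -2.21 and -4.23. The remaining ones were Fabp4, a fatty acid carrier of adipocytes (-2.01 and -4.29), Gm10020 (-2.06 and -2.31), the glycolytic enzyme Pgk1 (-1.88 and -2.24), the retinol carrier Rbp4 (-2.83 and -1.92) and Nme2 (-2.13 and -3.26). For Pgk1 the myogenic progenitor-like cells gave -2.22 and -2.25. For Rbp4 they gave 0.50 (-0.67 to 1.48) in KO, from 9 and 107 UMIs, and -3.91 in WT, from 1 and 119 UMIs, so its lower level over all cycling cells was not seen within that class in KO.

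The gate and the depth bear on the division lists over the days, since cycling cells held a median of 9784.5 UMIs in WT day 25 and 3678 in WT day 35. Among G2 and M phase genes, 20 of 85 were at least 2-fold higher at day 35 in WT (8.66% of all genes) and 2 of 85 in KO (6.86%), with medians of 0.43 and 0.45 beside -0.04 and 0.09 over all genes. S phase genes had medians of -0.02 and 0.07. Of 12 genes of the muscle sequence, 3 were past 2-fold higher and 1 lower in WT, where 8.66% and 13.2% of all genes were. In KO 7 of 12 were lower and none higher, where 7.8% and 6.86% of all genes were, beside a myogenic progenitor-like part of cycling cells of 73.1% in WT day 35 and 38.0% in KO day 35. Cdkn2a, which encodes an inhibitor that accumulates in ageing and stressed cells, was at 16.5 CPM in WT day 25, 32.9 CPM in KO day 25, 138 CPM in WT day 35 and 57.8 CPM in KO day 35, with day 35 over day 25 at 3.06 (2.65 to 3.46) and 0.81 (0.32 to 1.28) on the log2 scale. Myc, a driver of growth and division, was at 27.5 and 25.3 CPM at day 25 and at 72.0 and 75.2 CPM at day 35 in WT and KO.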

How the data were processed

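Single cells of 4 libraries, 1 per genotype and day, were profiled with the 10x v2 kit, per the labels' protocols. The deposited files hold raw UMI counts per gene and barcode for 27998 genes. The submitters' processing notes name R 3.5.1, Seurat 2.3.1, bcl2fastq and Cell Ranger 2.1.0, and as builds GRCm38 and mm10, without saying what each was used for. The cycling cells and all gene lists were chosen with earlier results of these data known.

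From the counts, kept cells were clustered in Python 3.11.15 (scikit-learn 1.9.0, leidenalg 0.10.2) on 2000 variable genes, 30 principal components and 20 neighbours at resolution 1, with seed 1. The 8 gate markers, the division gene lists, a list of imprinted genes (H19, Igf2, Mest and Cdkn1c among them) and genes correlated above 0.15 with the number of gate markers detected (720 genes) were left out. A cluster was named when at least 3 fixed markers stood among its 50 leading genes and 2 among the top 20, with no other class having as many in the top 10. Doublets were kept unless stated. Scores against simulated doublets marked 0.8% of cells per 1000 barcodes. Levels are UMIs pooled over cells and scaled to CPM. Log2 ratios use genes with at least 50 UMIs, and groups of under 20 cells gave none. Shares carry exact Clopper-Pearson, levels exact Poisson and ratios exact conditional binomial 95% intervals, and a count of 0 a floor of 3 counts. All intervals cover counting error only.

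Named genes outside the fixed lists were up to 10 per direction. For cycling over other cells they had the same sign in every pair and were ranked by the median. For genotype and day they had a 2-fold ratio, the same sign and an interval without 0 in both comparisons, and were ranked by the bound nearest 0. Tmprss3, ribosomal protein, mitochondrial, Y-linked genes and Xist were not ranked. The counting code was tested on simulated data. Alternatives varied the gate, depth, clusters, doublets and gene filter.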

Additional observations from a re-analysis of the deposited data

Results flagged for a closer look

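The gate left out cells with 3 or more pluripotency markers, and in KO day 35 many of these carried division markers. Of 320 such cells in that library, 260 had 5 or more of the 8 cycling markers (81.3%, 76.5 to 85.4%), more than the 108 cells inside the gate. In WT day 25 it was 11 of 13, in KO day 25 none of 2, and WT day 35 held no such cell. The 260 cells were deep, with a median of 16467.5 UMIs against 7563 in the rest, and their median S phase part was 50.3%, against 23.0% in the cycling cells of the same library. They were singled out because they form a signal outside the cells described, and with 1 library per group nothing was tested.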

How the results depend on the processing

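Of the 2 day ratios and 2 genotype ratios of library shares, 29 of 44 alternative values stayed inside the counting interval of the main value. So did 23 of 44 library shares and 66 of 112 class shares. With at least 1000 genes and at most 5% mitochondrial UMIs, KO over WT at day 35 was 1.38 and day 35 over day 25 in WT 0.148. At 3000 UMIs and 5 of 8 markers these were 0.575 and 0.505, and the KO day ratio 0.263. At 3000 UMIs and 3 of 8 markers the first 2 were 0.622 and 0.394. The day ratios in WT and KO were 0.348 and 0.261 at 2000 UMIs, 0.321 and 0.311 at 1500 UMIs with 3 of 8 markers, and 0.319 and 0.334 with 2 of 8, the settings at 1500 UMIs having been chosen after seeing the data. Without exclusion by pluripotency markers KO over WT at day 35 was 3.08 and the KO day ratio 0.644, since the cells described above then enter. The myogenic progenitor-like share was 11.6% in WT day 35 at resolution 2, and 32.7% and 19.0355% in WT day 25 and WT day 35 when each cell took its highest marker set. It was 17.7%, 18.6% and 24.3% in WT day 25, KO day 25 and WT day 35 at 3000 UMIs, and 20.7% and 22.1% in the day 25 libraries at 1500 UMIs. In 8 settings that class ranked first and otic epithelial-like cells last of 12 by shares pooled over libraries. In WT day 25 alone the otic epithelial-like share was 2.04%, beside 1.64% in differentiated muscle and 1.92% in otic fibrocyte or periotic mesenchyme-like cells.

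Gene counts moved by more than 1.5 times in 11 of 36 cases. For KO over WT, 6 genes were higher and 6 lower at 20 UMIs, and 1 higher by the mean of within-class ratios, which rests on 7 classes at day 25 and on the myogenic progenitor-like class at day 35. Genes lower at day 35 numbered 231 by each cell's own CPM and 162 within the myogenic progenitor-like class, the only one with 20 cycling cells at day 35. Between genotypes and between days, counts by own CPM or within classes asked for sign and 2-fold size only. The interval rule of the main counts was left out there, so these counts follow a looser rule. Of cycling over other cells, 161 were higher and 7 lower at 20 UMIs, 30 higher at 100 UMIs, and 3 lower by own CPM, 16 without the highest doublet scores and 2 at 6 of 8 markers. Of the 75 higher genes, 72 were among the 106 without those scores. Single named genes stayed inside their main bounds in 333 of 375 cases, but in 14 of 35 by within-class ratios. For genotype and day these bounds were the 95% interval. For cycling over other cells they were the lowest and highest ratio over the 19 pairs. Rbp4 reversed, to 0.50 in KO, within the myogenic progenitor-like class. For the values that moved, the cause was not tested, except where fewer cells or genes entered, or the interval rule was left out, by construction. No paired analysis was possible because each group has 1 library and the labels give no shared replicate.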
